A study of Homo sapiens with 6 samples.

Results

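Ubiquitin on histone H2A is put on by Polycomb repressive complex 1 and taken off by a small set of deubiquitinases. The genes described here are 9 of the 26485 gene symbols in the count files, chosen by name. They are BAP1 and its partners ASXL1, ASXL2 and ASXL3, which form the PR-DUB complex, the other H2A deubiquitinases USP16, USP21, USP3 and MYSM1, and DNAJC2, a protein that binds ubiquitinated H2A. The RNA of 6 libraries came from AF22, a human line of neural stem cells. The control group holds 3 libraries of cells of WT genotype that received a control for short hairpin RNA (shControl). The knockdown group holds 3 libraries of the same line labelled as a BMI1/COMMD3-BMI1 knockdown. BMI1 belongs to Polycomb repressive complex 1, and COMMD3-BMI1 names the transcript that runs from the neighbouring gene COMMD3 into BMI1. All libraries come from 1 line, and the sources used here give neither the time after knockdown nor the hairpins. The labels number the libraries 1 to 3 in each group without saying whether they are separate cultures, so the spread that the p-values rest on may be technical.

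As background, the RING1 and RNF2 ligases of Polycomb repressive complex 1 attach a single ubiquitin to H2A, with BMI1 or another PCGF protein as their partner. PR-DUB removes it: BAP1 holds the protease and an ASXL protein switches it on. USP16, USP21 and USP3 are cysteine proteases of the ubiquitin-specific protease family, MYSM1 is a zinc metalloprotease, and DNAJC2 (also called ZRF1 or MPP11) is a J-domain chaperone that also works at the ribosome. In stem cells these genes are known for the release of repressed developmental genes on differentiation, and truncating changes in the ASXL genes cause developmental syndromes.

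The coding stretches below, from 5 of the genes, show how alike the ubiquitin-specific proteases are at their working site, and how BAP1 differs from them there. Sequences are from GENCODE 29 transcripts (GRCh38), printed 5′ to 3′ on the coding strand. Capitals mark the codon of the active-site cysteine in the first 4 and the HPD motif of the J domain in DNAJC2.
USP3: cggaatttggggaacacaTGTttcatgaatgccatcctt
USP16: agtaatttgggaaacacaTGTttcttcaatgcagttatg
USP21: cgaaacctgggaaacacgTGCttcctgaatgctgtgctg
BAP1: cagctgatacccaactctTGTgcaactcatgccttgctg
DNAJC2: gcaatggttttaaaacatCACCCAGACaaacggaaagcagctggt
The USP3 stretch lies in exon 6 of 15 at chr15:63558139-63558177 (plus strand), and its capitals encode residue 168 of 520. The USP16 stretch lies in exon 6 of 18 at chr21:29037422-29037460 (plus strand), residue 205 of 823. That of USP21 crosses from exon 4 to exon 5 of 14 at chr1:161162080-161162290 (plus strand), residue 221 of 565, and that of BAP1 from exon 4 to exon 5 of 17 at chr3:52408042-52408476 (minus strand), residue 91 of 729. DNAJC2 is shown from exon 4 of 17 at chr7:103327705-103327749 (minus strand). The 3 ubiquitin-specific proteases had the same base at 25 of the 39 positions (64.1%), and USP3 and USP16 at 29 of 39.

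Library totals ran from 4962745 to 9640349 counts. BMI1 itself, the check of the labels, was at 85.1, 90.0 and 87.4 CPM (counts scaled by library size) in control libraries 1, 2 and 3. In knockdown libraries 1, 2 and 3 it was at 39.9, 21.5 and 26.2 CPM. Its level was lower in every knockdown library, least so in library 1, with a log2 fold change of -1.61 (edgeR adjusted p 0.163; 0.00836 when the fit also holds the library number). Knockdown library 2 stood apart on the first principal component of log2 CPM, which held 49.2% of the variance: it scored 40.2, and the others -25.5 to 11.5. The 8 neural stem markers (SOX2, NES and others) were all detected, with a summed level of 3460 to 3690 CPM in control and 2880 to 4000 CPM in knockdown libraries. The largest parts of that sum were VIM (1900 CPM in control, log2 fold change 0.17) and NES (1030 CPM, -0.25). NES was at 576.7 CPM in knockdown library 2. HES1 (0.08) lay higher too, while SOX2 (-0.08), PAX6 (-0.35), SOX1 (-0.35), FABP7 (-0.19) and MSI1 (-0.08) lay lower. The median log2 fold change of the 8 was -0.14. Markers of other cell types were present in part. The neuronal markers ELAVL4 and RBFOX3, the oligodendrocyte marker SOX10 and the pluripotency marker NANOG had 0 counts in all 6 libraries, and the astroglial marker GFAP had 1 count in all. Other markers of the same lists were detected: those that passed the filter on low counts summed to 622 to 694 CPM in control and 633 to 742 CPM in knockdown libraries for 4 of 8 neuronal markers (MAP2 and others), and to 181 to 208 and 157 to 186 CPM for 4 of 6 oligodendrocyte markers. The neuronal sum was mostly MAP2 (489 CPM in control, log2 fold change 0.15). TUBB3 (-0.13), ELAVL3 (-0.89) and SYP (-0.55) lay the other way, and the median log2 fold change of the 4 was -0.34. For 3 of 4 pluripotency markers (LIN28A and others) the sums were 408 to 561 CPM in control and 482 to 600 CPM in knockdown libraries. LIN28A was the largest part of these sums (268 CPM in control, log2 fold change 0.24). POU5F1 (-0.19) lay the other way, DPPA4 was at 0.01, and the median of the 3 was 0.01. The 4 of 6 astroglial markers that passed were GJA1 (264 CPM in control), SLC1A3 (215), S100B (81.1) and AQP4 (2.07). They summed to 548 to 592 CPM in control and 603 to 658 CPM in knockdown libraries, and the sums did not overlap. Taken singly, the groups did not overlap for 1 of the 4, GJA1, where 20.5% of all genes tested had such groups. SLC1A3 and S100B overlapped, and AQP4 lay the other way (log2 fold change -0.23). The 6 mesenchymal markers (COL1A1, COL3A1 and others) summed to 1060 to 1340 CPM in control and 1340 to 2000 CPM in knockdown libraries, highest in knockdown library 2. When the fit also holds the library number, GJA1 (edgeR adjusted p 0.0398) and COL3A1 (0.0322) were called higher, where 4.63% of all genes were. The neuronal marker ELAVL3 (0.0256) was called lower there, where 5.39% of all genes were. None was called without the library number, and these calls are too few to set apart from that background. The part of these markers in the results below was not tested.

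All 9 genes were expressed in the control cells and all passed the filter on low counts. Levels between genes were compared per kilobase of the longest coding transcript. BAP1 was the most abundant, at 36.7 ± 1.36 CPM per kb (mean ± SD, n = 3 control libraries), above 82.0% of the 12286 tested genes with a known length. USP16 (23.9 ± 0.484) and ASXL1 (23.7 ± 0.640) followed, then USP3 (16.5 ± 2.22), USP21 (16.5 ± 1.22) and DNAJC2 (14.8 ± 0.437), all in CPM per kb. MYSM1 (8.41 ± 1.41), ASXL2 (4.39 ± 0.192) and ASXL3 (1.66 ± 0.268 CPM per kb) were below the median of those genes, 12.7 CPM per kb. USP16 and ASXL1 did not differ beyond the spread over libraries. The same held for USP3 against USP21 and for USP21 against DNAJC2, whose ranges overlapped, while all other neighbours in this order were separated in every control library. Per kilobase of all annotated exons together, which counts retained introns too, BAP1 stood at 28.5 and ASXL1 at 12.2 CPM per kb, and MYSM1 (7.32) stood above DNAJC2 (6.83). BMI1 was at 25.5 ± 0.712 CPM per kb in control libraries, between BAP1 and USP16.

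**Figure D1:**
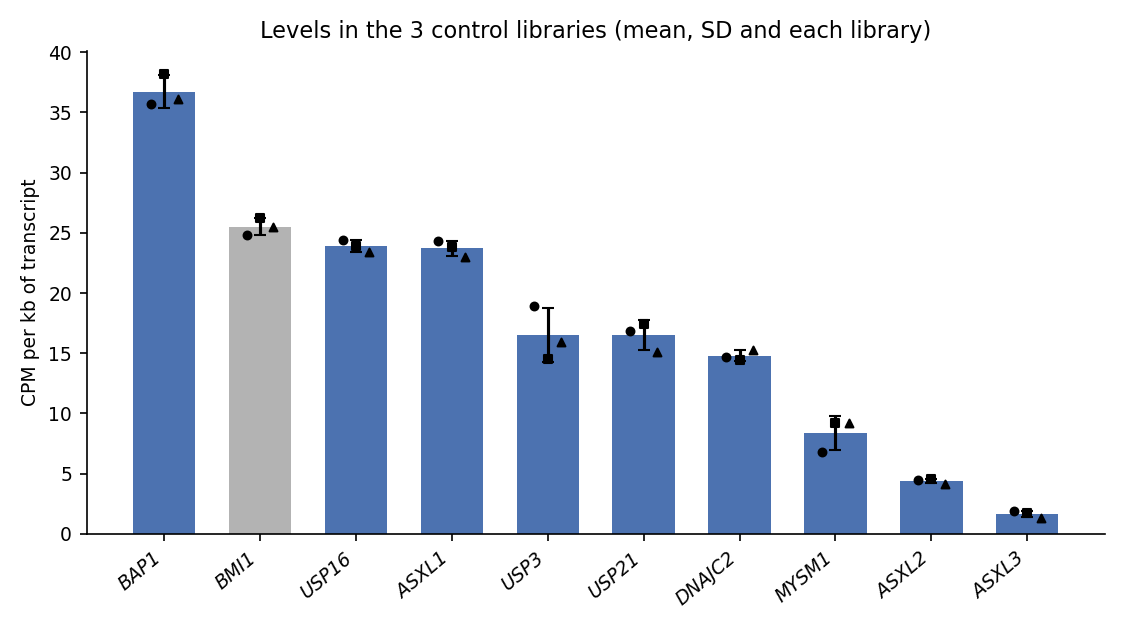
Level of each gene in the 3 control libraries in CPM per kilobase of the longest coding transcript; bars are means, error bars SD, points single libraries (circle 1, square 2, triangle 3), and BMI1 is in grey for comparison. BAP1 leads at 36.7 CPM per kb and ASXL3 is lowest at 1.66.

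Within PR-DUB, ASXL1 was the main ASXL gene. Of the summed ASXL level per kilobase it made up 79.3%, 79.1% and 80.6% in the controls (libraries 1, 2 and 3) and 79.5%, 78.1% and 80.5% with knockdown. ASXL2 gave 13.2% to 15.1% and ASXL3 4.78% to 8.65% over the 6 libraries. The summed ASXL level was 0.858, 0.788 and 0.791 times that of BAP1 in the controls and 0.848, 0.716 and 0.786 times with knockdown, and the groups overlapped. Knockdown library 2 was the lowest in this ratio, and control library 1 the highest. These shares and ratios depend on the length used. Per kilobase of all annotated exons together, the control means were 12.2 for ASXL1, 4.34 for ASXL2, 1.43 for ASXL3 and 28.5 CPM per kb for BAP1. By that length ASXL1 still led, but its share and the ratio of the ASXL sum to BAP1 were both smaller. The ratio to BMI1 was far apart between the groups: BMI1 stood at 0.696, 0.687 and 0.707 times BAP1 per kilobase in the controls and at 0.343, 0.161 and 0.215 times with knockdown. This difference was fixed by the knockdown itself, since BMI1 was its target, and was not tested.

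The question for these genes was whether lowering a subunit of the ligase complex went with a change in the enzymes that act against it. None of the 9 passed edgeR's quasi-likelihood test at an adjusted p of 0.05 (adjusted over all 12937 genes tested), where 0% of all genes passed. Libraries of the same number deviated together, so the library number was also added as a block (called the paired fit here). None of the 9 passed there either, where 10% of all genes did. At an unadjusted p under 0.05, 1 of the 9 (DNAJC2) passed in each edgeR fit, where 14.4% of all genes did without the block and 28.7% with it. DESeq2 without the block called none of the 9, where it called 1.10% of all genes. The median log2 fold change of the 9 was -0.02 (all genes tested: -0.003), and the median size of the change, whatever its sign, was 0.08 (all genes tested: 0.15).

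**Figure D2:**
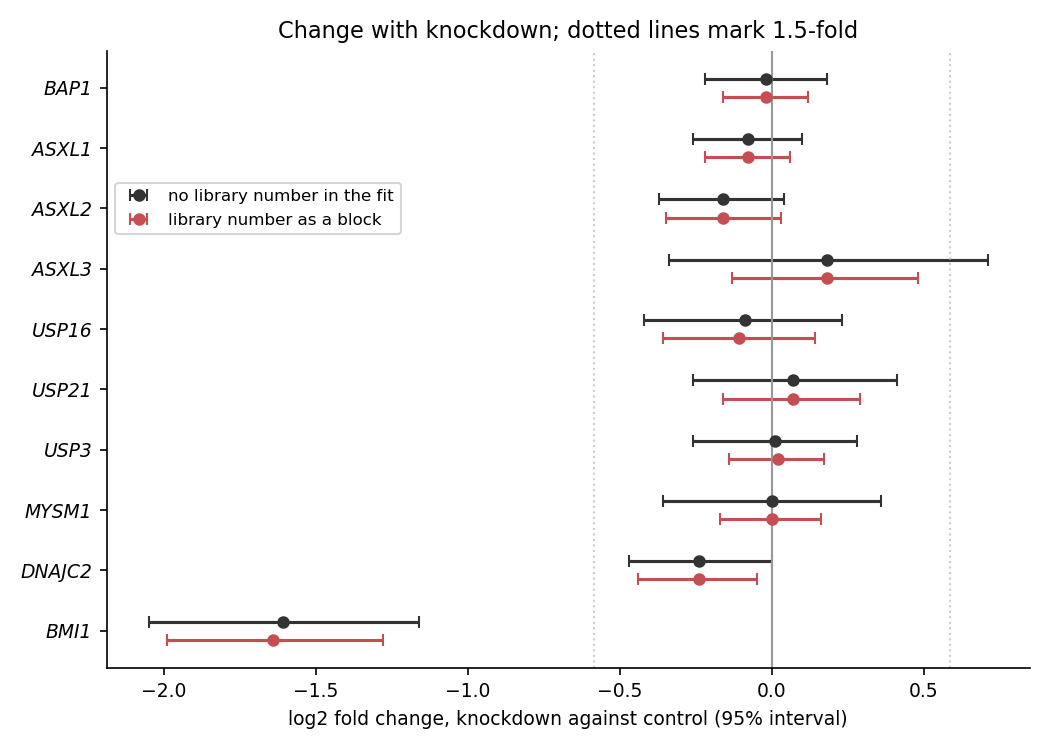
Log2 fold change, knockdown against control, with its 95% interval for the 9 genes and BMI1, from edgeR without (black) and with (red) the library number as a block; dotted lines mark a 1.5-fold change either way. The intervals of the 9 genes lie near 0, that of ASXL3 is the widest at -0.34 to 0.71 without the block, and BMI1 lies apart at -1.61.

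A miss of the threshold does not show that a gene stayed the same, so the 95% interval of each change was set against fixed bounds. Without the block the interval lay within 1.5-fold either way for 8 of the 9 genes, all but ASXL3 (61.2% of all genes tested), and within 1.25-fold for 3, namely BAP1, ASXL1 and USP3 (20.5% of all genes). With the block it lay within 1.5-fold for all 9 (71.6% of all genes) and within 1.25-fold for 5, the same 3 with USP21 and MYSM1 (35.8%). These intervals hold for 1 gene at a time and are not widened for the number of genes.

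BAP1, the catalytic subunit of PR-DUB, was at 140.4, 150.4 and 142.1 CPM in control and 133.8, 153.7 and 140.0 CPM in knockdown libraries. Library 2 was the highest of each group, library 1 the lowest of each, and the groups overlapped. Its log2 fold change was -0.02 (SE 0.0866, edgeR adjusted p 0.944), and the 95% interval ran from 0.86-fold to 1.13-fold. With the block it ran from 0.89-fold to 1.09-fold. BAP1 had 647 to 1336 counts per library, so counting error alone is 2.74% to 3.93%.

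ASXL1 (chr20:32358330-32439319, plus strand, GRCh38), which activates BAP1, was at 171.3, 167.9 and 162.3 CPM in control and 161.7, 154.1 and 158.6 CPM in knockdown libraries. Every knockdown library lay below every control library, by a small margin. Its log2 fold change was -0.08 (SE 0.0769, edgeR adjusted p 0.656; 0.434 in the paired fit). ASXL2 (chr2:25733753-25878516, minus strand), a paralog that can take its place in the complex, was at 57.3, 58.6 and 53.8 CPM in control and 51.3, 47.6 and 52.7 CPM in knockdown libraries. Here too the groups did not overlap, and knockdown library 2 was the lowest. The log2 fold change of ASXL2 was -0.16 (SE 0.0904, edgeR adjusted p 0.447; 0.248 in the paired fit), with an interval from 0.77-fold to 1.03-fold.

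ASXL3 (chr18:33578233-33751192, plus strand), a paralog known mainly from the nervous system, was the lowest of the 9 in counts too, with 109 to 210 per library. It was at 22.1, 20.6 and 16.0 CPM in control and 22.5, 28.4 and 15.8 CPM in knockdown libraries. Library 3 was low in each group, and knockdown library 2 was the highest of all. Its log2 fold change was 0.18 (SE 0.228, edgeR adjusted p 0.741). The differences within pairs 1, 2 and 3 were 0.03, 0.46 and -0.02 on the log2 scale, and without knockdown library 2 the log2 fold change was -0.05.

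**Figure D3:**
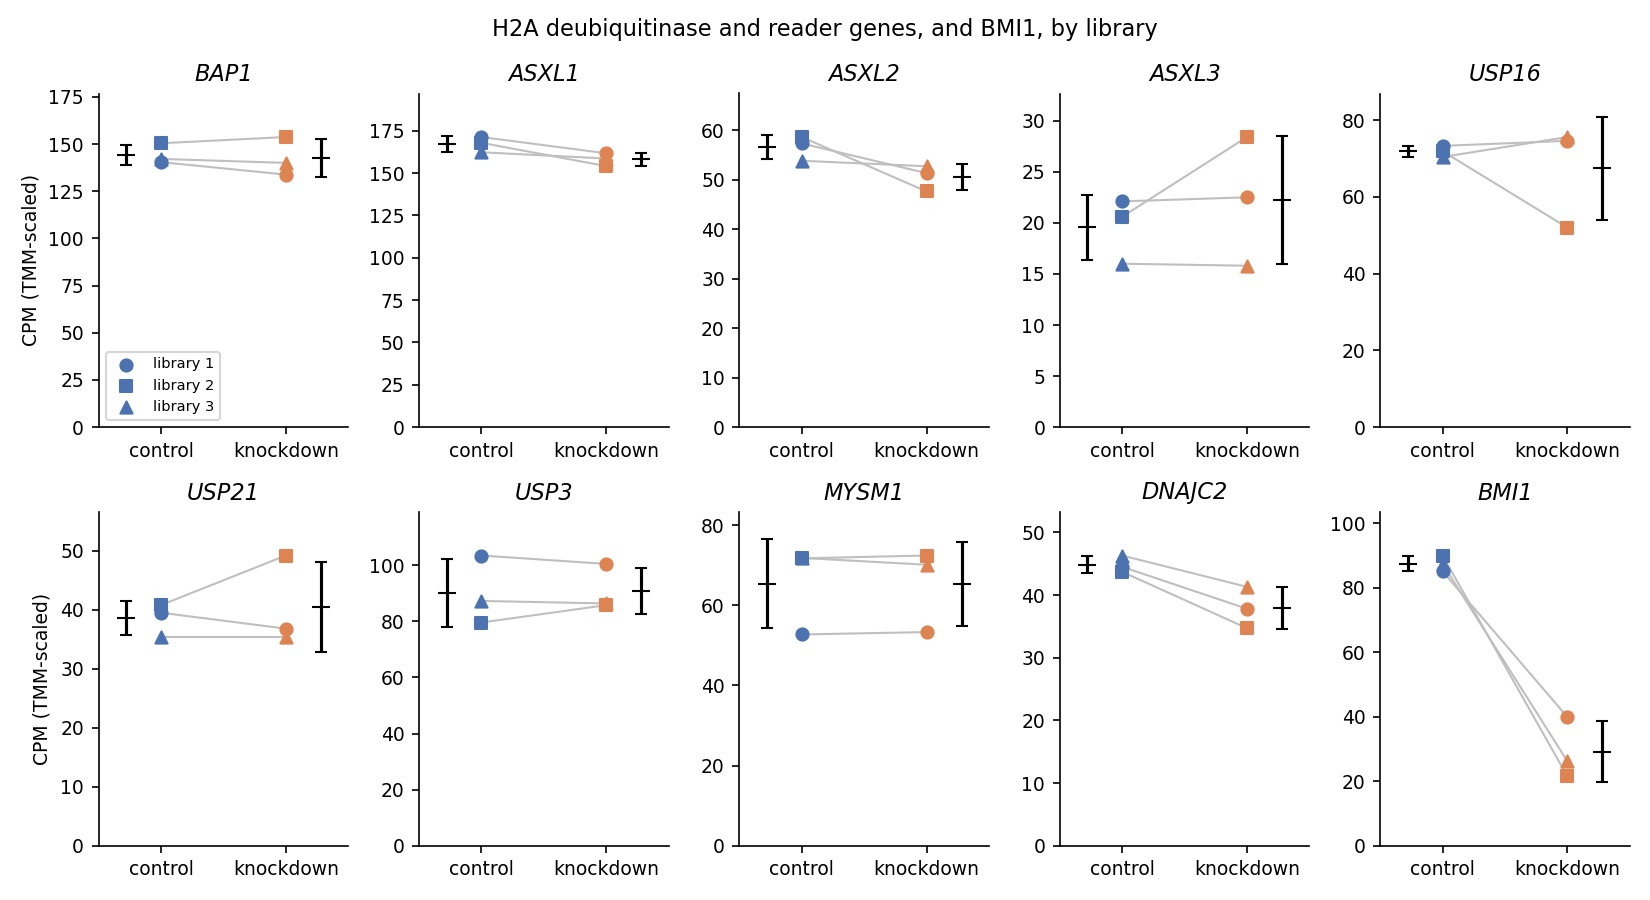
CPM of each of the 9 genes and of BMI1 in every library (blue control, orange knockdown; circle, square and triangle for libraries 1, 2 and 3); grey lines join libraries of the same number, black marks give the group mean and SD, and each panel has its own axis from 0. BMI1 drops in every pair, DNAJC2 lies at 34.7 to 41.3 CPM in knockdown and 43.7 to 46.3 in control libraries, and MYSM1 is low in library 1 of each group.

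Among the other deubiquitinases the groups overlapped for each gene. USP16, which removes ubiquitin from H2A ahead of mitosis, was at 73.3, 71.9 and 70.4 CPM in control and 74.6, 52.0 and 75.6 CPM in knockdown libraries. Knockdown library 2 was low and the other 5 libraries lay within 70.4 to 75.6 CPM. The log2 fold change of USP16 was -0.09 (SE 0.142, edgeR adjusted p 0.798), and 0.07 without knockdown library 2. USP21, which also acts on proteins outside chromatin, went the other way in that library. It was at 39.5, 40.8 and 35.3 CPM in control and 36.8, 49.2 and 35.3 CPM in knockdown libraries, with a log2 fold change of 0.07 (SE 0.146, edgeR adjusted p 0.855). Without knockdown library 2 it was -0.10. That library also stood lowest in the 12 proliferation markers (MKI67, TOP2A and others), whose median log2 difference from the control mean was -1.06 there, -0.11 and -0.51 in knockdown libraries 1 and 3, and between -0.10 and 0.14 in the controls. The part of this difference in the values of USP16 and USP21 was not tested.

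USP3, a deubiquitinase of H2A linked to the DNA damage response, was at 103.5, 79.6 and 87.3 CPM in control and 100.5, 85.8 and 86.4 CPM in knockdown libraries. Library 1 was the highest of each group. Its log2 fold change was 0.01 (SE 0.117, edgeR adjusted p 0.976). MYSM1, known for its role in blood stem cells, was at 52.7, 71.7 and 71.8 CPM in control and 53.3, 72.4 and 70.1 CPM in knockdown libraries. Library 1 was low in each group by a like amount, and within pairs 1, 2 and 3 the knockdown differed from the control by 0.02, 0.01 and -0.04 on the log2 scale. The 95% interval of MYSM1 ran from 0.78-fold to 1.28-fold without the block and from 0.89-fold to 1.12-fold with it.

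DNAJC2, the reader, had the largest shift relative to its spread. It was at 44.5, 43.7 and 46.3 CPM in control and 37.8, 34.7 and 41.3 CPM in knockdown libraries. Every knockdown library lay below every control library, and knockdown library 2 was the lowest. The log2 fold change was -0.24 (SE 0.103, a difference of -15.3%), and edgeR's quasi-likelihood test gave p 0.0474 unadjusted and 0.340 adjusted. In the paired fit it was -0.24 (SE 0.0857), with an interval from 0.74-fold to 0.97-fold and an adjusted p of 0.106. The differences within pairs 1, 2 and 3 were -0.23, -0.33 and -0.16. The shift thus did not pass the threshold over all genes in either fit. Without knockdown library 2 the log2 fold change was -0.18 (edgeR adjusted p 0.569). DNAJC2 and the proliferation markers were both lowest in that library and second lowest in different ones, and their part in this shift was not tested. DNAJC2, with 183 to 394 counts per library, shares 628 exon bases (9.6% of its exons) with PMPCB on the opposite strand, which had 4257 counts in all 6 libraries together. USP3 shares 1760 with USP3-AS1, which had 3 counts in all, and USP16 shares 149 with another antisense gene. The sources used here do not give the strand setting of the counting, so reads there could not be told apart.

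In all, the groups did not overlap for 3 of the 9 genes, ASXL1, ASXL2 and DNAJC2, each lower in knockdown, where 20.5% of all genes tested had groups that did not overlap (11.2% lower and 9.28% higher). With 9 genes this count is too small to set apart from that background.

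The spread over the 6 libraries followed the library number more than the group for 6 of the 9 genes (66.5% of all genes tested). The number took 99.6% of the sum of squares of log2 CPM in MYSM1, 93.6% in USP3, 88.4% in BAP1, 78.8% in ASXL3 and 74.6% in USP21. In USP16 it took 45.1%, beside 45.8% that neither term took. The group took the larger share in DNAJC2 (72.1%), ASXL2 (67.1%) and ASXL1 (63.4%), and 90.6% in BMI1. The medians over the 9 genes were 74.6% for the number and 7.4% for the group, against 50.8% and 22.5% over all genes tested. These shares are descriptions: the number has 2 degrees of freedom and the group 1. The total spread was small in ASXL1 (SD 0.0548 on the log2 scale over all 6 libraries), so a share of 63.4% there is a share of little.

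**Figure D4:**
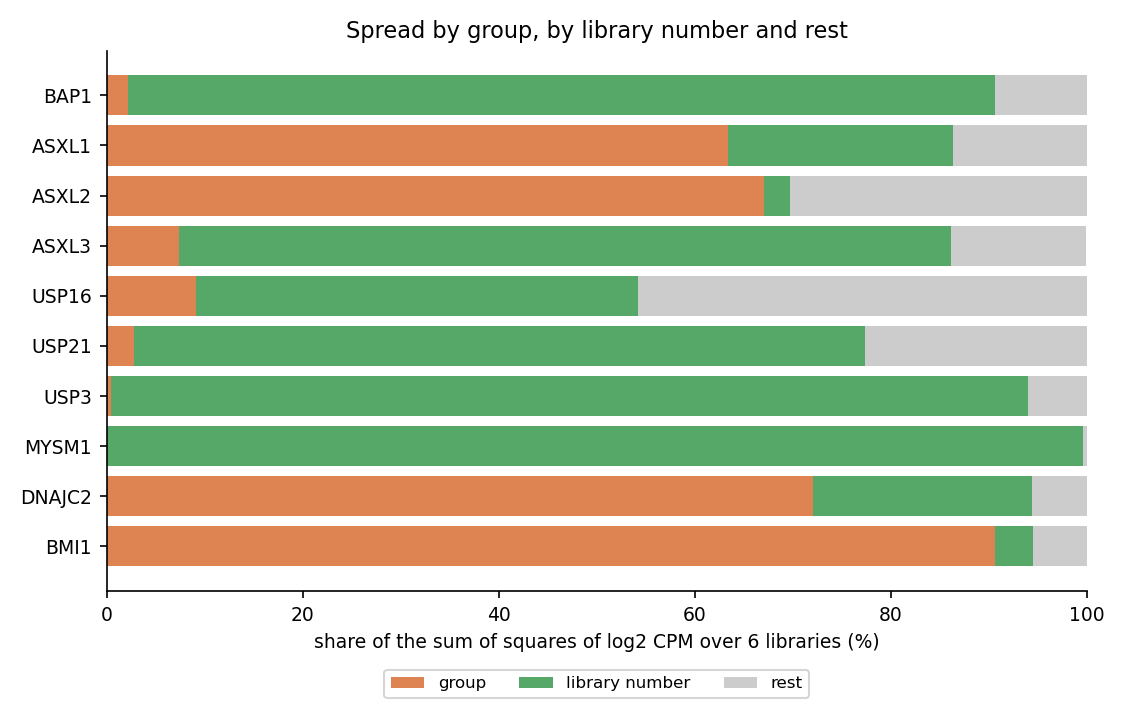
Share of the sum of squares of log2 CPM over the 6 libraries taken by group (orange), by library number (green) and by neither (grey), for each gene. The number takes 99.6% in MYSM1, and the group 90.6% in BMI1 and 72.1% in DNAJC2.

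DNAJC2 and ASXL2 had the smallest p-values of the 9 in the paired fit, and the genes whose log2 CPM followed them most closely over the 6 libraries were looked up among 10437 genes with a mean of at least 10 CPM. For DNAJC2 these were PPP1R35 (Pearson r 0.996), SCFD2 (0.996) and CBS (0.995). For ASXL2 they were ABHD3 (0.991), GPSM3 (0.991) and HMOX2 (0.986). With so many genes and 6 libraries that share group and number, values this high are found readily, and they are given as a description.

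The genes that work with PR-DUB were next. None of 9 cofactors passed in either edgeR fit (median log2 fold change 0.02). HCFC1, a scaffold that BAP1 binds, was at 235.6, 242.2 and 247.4 CPM in control and 221.5, 208.4 and 211.0 CPM in knockdown libraries, with a log2 fold change of -0.18 (SE 0.0795, adjusted p 0.354; 0.103 in the paired fit). MBD5, a methyl-CpG-binding domain protein that binds PR-DUB, lay the other way, at 32.3, 26.3 and 26.8 CPM in control and 34.5, 47.7 and 34.9 CPM with knockdown. The log2 fold change was 0.46 (SE 0.159, adjusted p 0.275; 0.0671 in the paired fit, and 0.0250 there without pair 1). Among 16 other proteases and cofactors that act on ubiquitin of H2A or H2B, none passed in either fit (median 0.02). ATXN7L3, the adaptor of the SAGA deubiquitinase module, was at 148.3, 161.8 and 158.7 CPM in control and 162.1, 198.4 and 181.8 CPM in knockdown libraries, with a paired adjusted p of 0.0743. USP11 was at 0.15 on the log2 scale (paired adjusted p 0.169). Without pair 2, which leaves 2 pairs to measure the spread, HCFC1 (adjusted p 0.0108) and ATXN7L3 (0.0266) passed in the paired edgeR fit. That fit called 2296 of all genes and the one without pair 1 called 1320, against 1296 with all pairs. These calls are thus not set apart from that background.

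On the side of the ligases, 2 of 13 genes besides BMI1 were called lower in the paired fit (5.39% of all genes) and none higher (4.63% of all genes), while none passed without the block (median -0.14). BRCA1, which ubiquitinates H2A at other lysines, fell in the paired fit by 0.74 on the log2 scale (SE 0.179, edgeR adjusted p 0.0398; 0.288 without the block). It was at 79.7, 84.9 and 61.6 CPM in control and 69.3, 32.7 and 39.3 CPM in knockdown libraries, and knockdown library 1 lay within the control range. RNF168, the ligase of H2A at DNA breaks, fell in the paired fit by 0.35 on the log2 scale (SE 0.0944, adjusted p 0.0499, just past the threshold; 0.288 without the block). It was at 61.9, 58.9 and 58.7 CPM in control and 56.0, 40.1 and 46.1 CPM in knockdown libraries, with no overlap. Neither of these is a ligase for the lysine that Polycomb marks, and both were lowest in knockdown library 2, where the proliferation markers were lowest too. In the paired fit 11 of the 12 proliferation markers were called lower, and their part in the values of BRCA1 and RNF168 was not tested. The call of RNF168 was lost without pair 3, after thinning to the smallest total and in DESeq2 with the block, and that of BRCA1 held in each of these. The catalytic subunits RING1 (-0.15) and RNF2 (0.13 on the log2 scale in the paired fit) did not pass in either fit.

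None of 8 other proteins that bind H2A ubiquitinated by Polycomb, or help to place the mark, passed in either fit (median -0.09). The DNA methyltransferase DNMT3A was at 132.7, 132.6 and 129.7 CPM in control and 120.8, 117.2 and 111.4 CPM in knockdown libraries, without overlap, with a paired adjusted p of 0.104 (0.0203 without pair 2). RSF1, a remodelling factor, lay at 0.18 on the log2 scale, also with a paired adjusted p of 0.104. None of 5 partners of DNAJC2 at the ribosome passed in either fit (median 0.01). Its direct partner HSPA14 was at 92.1, 87.5 and 87.7 CPM in control and 94.1, 79.7 and 93.9 CPM in knockdown libraries, and the groups overlapped. Those of DNAJC2 did not, as for 20.5% of all genes tested, and the difference between the 2 genes was not tested. The chaperone HSPH1 was at -0.19 (paired edgeR adjusted p 0.117) and the nascent chain factor NACA at 0.15 on the log2 scale (paired edgeR adjusted p 0.171, and 0.000999 without pair 2). Without pair 2 the partners BTF3 (0.22 on the log2 scale, paired edgeR adjusted p 0.000169) and HSPA8 (0.12, adjusted p 0.0293) passed too, both higher. AEBP2, from the list of DNMT3A, passed there as lower (-0.28, paired edgeR adjusted p 0.0115). The fit without pair 2, given here for DNMT3A, AEBP2, NACA, BTF3 and HSPA8, called 2296 of all genes, against 1296 with all pairs.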

How the data were processed

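The authors deposited raw whole-number read counts per gene symbol, 1 table per library, judged from the values. The submitters' processing notes name Trim Galore 0.6.6, STAR 2.7.10a, bedtools and hg38. Which program counted the reads, on which annotation and with which strand setting, is not given in the sources used here. Library totals were 4962745 to 9640349. Libraries within a group differed by more than sampling noise (chi-square per gene at least 3.19).

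The analysis used edgeR 4.0.16 (R 4.3.3): filterByExpr (12937 genes), TMM factors and the quasi-likelihood test with group as the only term, Benjamini-Hochberg adjusted over all genes tested. The SE is the log2 fold change divided by the square root of F, and 95% intervals use the t distribution of the fit. CPM uses TMM-scaled totals, and log2 CPM a prior count of 2. Lengths come from GENCODE 29, which gave one for 95.0% of them. Both edgeR fits were tested on simulated data, which had the same extra spread for every gene and no outlying library. That checks the code and does not show how the fits perform on these libraries.

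Same-numbered libraries of the groups deviated from their group means together, with correlations of 0.563, 0.467 and 0.535 over genes (other numbers: -0.342 to -0.107), each above 0.1, so the number was used as a block in the paired fit. Deviations from a group mean sum to 0 over its 3 libraries, so the negative values for other numbers are not a separate contrast. The pairing comes from the data, as the labels do not say what a number marks. DESeq2 1.42.0 and limma 3.58.1 were alternatives. The genes and lists were chosen with earlier results of these data known. Named list genes were those called in either edgeR fit and otherwise the 1 or 2 of smallest paired p. RING1, RNF2 and HSPA14 fall outside this rule: they are named for their roles and were chosen after their values were seen, as were the single markers of other cell types. BMI1 is reported as the target. Some sequence is not reported here.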

Additional observations from a re-analysis of the deposited data

How the results depend on the processing

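None of the 9 genes was called under any of the 19 alternatives: the replicate block, the block with a GC and length trend removed, RLE or total count scaling, no filter, a minimum of 1 CPM in 3 libraries, DESeq2 with and without the block, limma voom, thinning to the smallest total, and leaving out each library or each pair. RLE or total count scaling, the minimum of 1 CPM and limma voom called 0 of all genes. So did leaving out any 1 control library, or knockdown library 2 or 3. These alternatives could therefore not set the 9 genes apart from other genes. The adjusted p of DNAJC2 ranged from 0.106 to 0.609 over the alternatives and its log2 fold change from -0.31 to -0.18. DNAJC2, ASXL1 (-0.10 to -0.06) and ASXL2 (-0.23 to -0.09) were lower under all 19. The sign of the other 6 genes varied over the alternatives. The groups of DNAJC2, ASXL1 and ASXL2 did not overlap, so leaving out a library or pair could hardly change their sign. The other alternatives used the same 6 libraries, so the constant sign is not separate support. The share of all genes with a constant sign was not counted. Over all genes, the main edgeR fit without the block called 0. The replicate block called 1296, the block with the trend removed 1586 (847 higher; 599 of 1296 without that step), the block after thinning 1111, DESeq2 142 and 590 with the block, and no filter 2. Leaving out 1 library or pair gave 0 to 2296, with 665 without knockdown library 1, 1320 without pair 1, 2296 without pair 2 and 912 without pair 3. Of the genes in the pathway lists, the main fit without the block called 0. The replicate block called 2, also with the trend removed. DESeq2 with the block and the block after thinning each called 1, which was BRCA1 in both cases. Leaving out 1 library or pair gave 0 to 10, with 2 without knockdown library 1, 4 without pair 1, 1 without pair 3 and 10 without pair 2, where 2 pairs are left to measure the spread. The median control level of the 9 genes, 16.5 CPM per kb, was 10.2 with exon union length and 15.2 to 16.7 without 1 control library. Depth limits ASXL3 most, where counting error alone was 6.90% to 9.58% per library.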
